A study of Caenorhabditis elegans with 8 samples.

Results

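The fatty acid desaturases of *C. elegans* examined here are the products of *fat-1*, *fat-2*, *fat-3*, *fat-4*, *fat-5*, *fat-6* and *fat-7*. They were found on the arrays by the gene identifiers Y67H2A.8, W02A2.1, W08D2.4, T13F2.1, W06D12.3, VZK822L.1 and F10D2.9 after transcript suffixes were dropped, which gave 7 of the 20113 identifiers on the array, each with 1 probe. The 8 one-colour arrays came from whole animals of 4 genotypes in the N2 strain background, with 2 biologically independent pools of worms per genotype. The triple mutant carries *hpl-2(tm1489)*, *hpl-1(tm1624)* and *his-24(ok1024)*, and is written *hpl-2*; *hpl-1 his-24*. The double mutants are *hpl-2*; *his-24*, with *hpl-2(tm1489)* and *his-24(ok1024)*, *hpl-1*; *hpl-2*, with *hpl-1(tm1624)* and *hpl-2(tm1489)*, and *hpl-1 his-24*, with *hpl-1(tm1624)* and *his-24(ok1024)*. HPL-1 and HPL-2 are the worm relatives of heterochromatin protein 1, and HIS-24 is a linker histone H1 variant. Every pool held 80 to 100 animals raised at 21°C, which the labels place at the L4 and young adult stages and the study's methods at L4. Arrays of wild type or of single mutants were not used here, so every value below sets one mutant against another.

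Worms build their polyunsaturated fatty acids themselves, from saturated fatty acids, through a chain of desaturases that put in double bonds and elongases that lengthen the chain. FAT-5, which acts mainly on palmitic acid, and the closely related FAT-6 and FAT-7, which act mainly on stearic acid, put in the first double bond. FAT-2 turns oleic acid into linoleic acid, FAT-3 and FAT-4 add further double bonds at the carboxyl side on the way to arachidonic and eicosapentaenoic acid, and FAT-1 is the omega-3 desaturase. The intestine, the main fat store of the worm, is a known site of expression of these genes, and *fat-5*, *fat-6* and *fat-7* are known targets of nuclear receptors such as NHR-49 and NHR-80, of the sterol-responsive factor SBP-1 and of the Mediator subunit MDT-15.

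The labels were checked with the deleted genes. *his-24* was not detected well above background on any of the 6 arrays labelled with its allele and lay at 0.31 and 0.46 on the *hpl-1*; *hpl-2* arrays, in log2 units relative to the array's 75th percentile, so that 0 is that percentile and a difference of 1 is a factor of 2. *hpl-2* lay between 0.041 and 0.52 on the 6 arrays labelled with its allele and at 1.04 and 1.16 on the *hpl-1 his-24* arrays. *hpl-1* differed between arrays labelled with the same allele. It was not well above background in *hpl-1*; *hpl-2* worms, but lay at -0.60 and -0.53 on the arrays labelled as the triple mutant and at -0.36 and -0.30 on those labelled *hpl-1 his-24*, beside -0.49 and -0.65 in *hpl-2*; *his-24* worms, which are not labelled with its allele. Where the *hpl-1* and *hpl-2* probes lie relative to the deletions was not tested, so a reading above background does not show that a label is wrong. Genotype names follow the labels, and the *hpl-1* reading does not separate the triple mutant or *hpl-1 his-24* arrays from worms without its allele. Replicate arrays correlated at r = 0.986 in *hpl-2*; *his-24* worms and at r of at least 0.996 in the other genotypes. Both *hpl-2*; *his-24* arrays shared a slide and a scan day with no other genotype, so that genotype and those batches cannot be told apart. The 2 *hpl-1 his-24* arrays had 2 slides to themselves, so every difference from that genotype is also a difference between slides. Triple mutants and *hpl-1*; *hpl-2* worms shared 2 slides, with 1 array of each genotype on both.

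Each of the 7 desaturase probes lay well above background on every one of the 8 arrays, no spot of them was saturated, and all 7 were among the 17092 identifiers tested. The array design lists transcripts of 1 gene against each probe, its own, but whether *fat-5*, *fat-6* and *fat-7* RNA can bind each other's probes was not tested. In the reference gene order *fat-1* and *fat-2* are neighbours on chromosome IV, as are *fat-3* and *fat-4*, while *fat-6* lies elsewhere on chromosome IV and *fat-5* and *fat-7* lie on chromosome V. Over the 8 arrays *fat-7* had the widest range of the 7 genes and *fat-6* the narrowest. Levels of different probes cannot be ranked against each other, so each gene is compared only with itself.

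**Figure D1:**
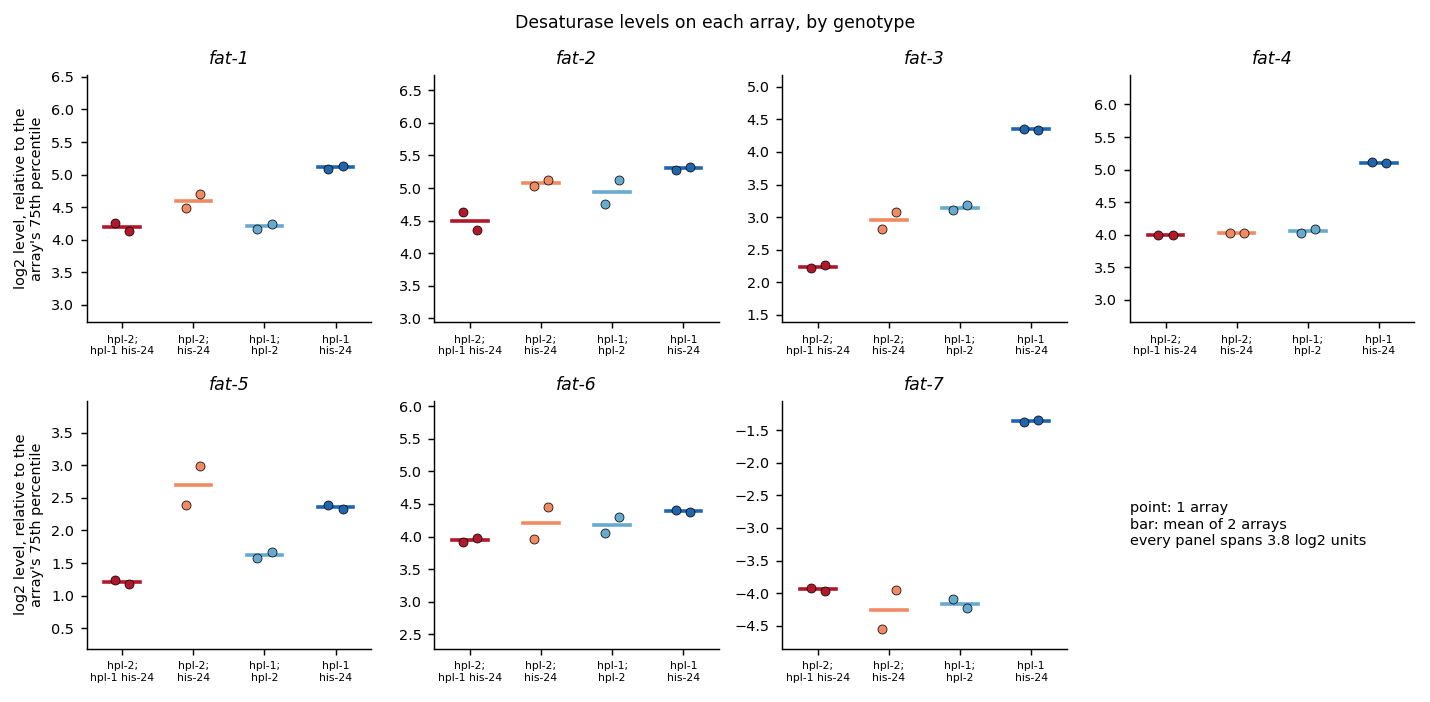
Log2 level of each desaturase, relative to the 75th percentile of its array (vertical axis), on the 2 arrays of each genotype (horizontal axis), as points with a bar at their mean. The *hpl-1 his-24* arrays have the highest mean for every gene but *fat-5*, and *fat-7* lies at or below -3.92 on all 6 arrays labelled with *hpl-2(tm1489)* against -1.38 and -1.34 on the *hpl-1 his-24* arrays.

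*fat-7*, one of the stearic acid desaturases, showed the largest differences. Its log2 level was -3.92 and -3.96 in triple mutants, -4.56 and -3.95 in *hpl-2*; *his-24* worms, -4.09 and -4.23 in *hpl-1*; *hpl-2* worms, and -1.38 and -1.34 in *hpl-1 his-24* worms. Both *hpl-1 his-24* arrays thus lay far above the other 6. *fat-7* was 5.98-fold lower in triple mutants than in *hpl-1 his-24* worms (log2 difference -2.58 ± 0.19, SE, n = 2 arrays each, limma adjusted p = 0.000148). It was 7.42-fold lower in *hpl-2*; *his-24* worms than in *hpl-1 his-24* worms (-2.89 ± 0.19, adjusted p = 4.91e-05) and 6.97-fold lower in *hpl-1*; *hpl-2* worms (-2.80 ± 0.19, adjusted p = 9.97e-05), with the same 2 *hpl-1 his-24* arrays in all 3 comparisons. Among the genotypes labelled with *hpl-2(tm1489)*, no difference passed the test. The log2 difference was 0.31 between triple mutants and *hpl-2*; *his-24* worms (95% interval -0.15 to 0.77), 0.22 between triple mutants and *hpl-1*; *hpl-2* worms (-0.24 to 0.68) and -0.091 between *hpl-2*; *his-24* worms and *hpl-1*; *hpl-2* worms (-0.55 to 0.37). These intervals leave room for differences of up to 0.77 in size. The *hpl-2*; *his-24* replicates spread more than those of any other genotype (SD 0.425, against 0.0258 to 0.0990), and without replicate 2 the difference between triple mutants and *hpl-2*; *his-24* worms was 0.61 (adjusted p = 0.00456) and that between *hpl-2*; *his-24* worms and *hpl-1*; *hpl-2* worms -0.39 (adjusted p = 0.0241). Without replicate 1 the same differences were 0.011 (adjusted p = 0.942) and 0.21, and did not pass. In these fits, and in those below that leave out 1 array, the lone array of a genotype is assumed to vary like the other genotypes.

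The *fat-7* probe was printed in 20 spots on each array, where the other desaturase probes had 2, so its reading can be followed spot by spot. The spots of *fat-7* ran from -4.08 to -3.79 and from -4.09 to -3.74 on the triple mutant arrays, and from -1.44 to -1.32 and from -1.40 to -1.22 on the *hpl-1 his-24* arrays. In *hpl-2*; *his-24* worms they ran from -4.62 to -4.50 in replicate 1 and from -4.03 to -3.84 in replicate 2. The spots of the 2 replicates did not overlap there, so the distance between these pools exceeded the spread of spots on an array. One spot was left out as an outlier on each of 2 arrays, triple mutant replicate 2 and *hpl-1*; *hpl-2* replicate 1, which left 19 spots there.

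**Figure D2:**
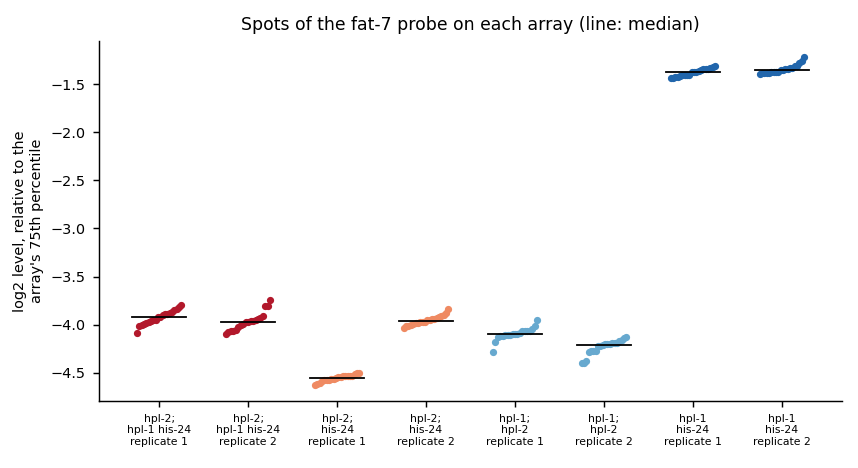
Log2 level of each spot of the *fat-7* probe relative to the array's 75th percentile (vertical axis), for the 8 arrays (horizontal axis), with a line at the median of each array. The spots of the *hpl-1 his-24* arrays lie at or above -1.44 and all others at or below -3.74.

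*fat-6*, the second stearic acid desaturase, passed the test in no comparison. The log2 level of *fat-6* was 3.91 and 3.97 in triple mutants, 3.96 and 4.45 in *hpl-2*; *his-24* worms, 4.05 and 4.30 in *hpl-1*; *hpl-2* worms, and 4.40 and 4.38 in *hpl-1 his-24* worms. Of neighbours in the order of the 4 genotype means, only triple mutants and *hpl-1*; *hpl-2* worms had arrays that did not overlap. The *hpl-2*; *his-24* arrays spanned nearly the whole range of the gene. Its largest difference was between triple mutants and *hpl-1 his-24* worms, at -0.45 (95% interval -0.87 to -0.029, adjusted p = 0.0817). Without both *hpl-2*; *his-24* arrays, whose spread enters the common fit, the same difference had an adjusted p of 0.0137. Leaving out *hpl-2*; *his-24* replicate 1 took the difference between triple mutants and *hpl-2*; *his-24* worms to -0.51 (adjusted p = 0.0203), but leaving out replicate 2 took it to -0.013 (adjusted p = 0.941). The difference between *hpl-2*; *his-24* worms and *hpl-1 his-24* worms was -0.44 without replicate 2 (adjusted p = 0.0256) and 0.056 without replicate 1 (adjusted p = 0.728). Quantile normalization turned its difference between triple mutants and *hpl-1 his-24* worms to 0.026, so that no direction can be given for *fat-6*.

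*fat-5*, the palmitic acid desaturase, was the only 1 of the 7 with its highest mean in *hpl-2*; *his-24* worms. The arrays read *fat-5* at log2 levels of 1.23 and 1.18 in triple mutants, 2.39 and 2.99 in *hpl-2*; *his-24* worms, 1.57 and 1.67 in *hpl-1*; *hpl-2* worms, and 2.39 and 2.33 in *hpl-1 his-24* worms. It was thus low on the arrays of triple mutants and *hpl-1*; *hpl-2* worms and high on the other 4. *fat-5* was 2.80-fold lower in triple mutants than in *hpl-2*; *his-24* worms (log2 difference -1.49 ± 0.19, SE, n = 2 each, adjusted p = 0.00166) and 2.22-fold lower than in *hpl-1 his-24* worms (-1.15 ± 0.19, adjusted p = 0.00401). In *hpl-2*; *his-24* worms it was 2.101-fold higher than in *hpl-1*; *hpl-2* worms (1.07 ± 0.19, adjusted p = 0.00495). Between *hpl-1*; *hpl-2* worms and *hpl-1 his-24* worms the difference of -0.74 passed at an adjusted p of 0.0231, but not when any 1 of those 4 arrays was left out (adjusted p 0.0795 to 0.107). The 2 genotypes at either end did not pass against their neighbours in the common fit. The arrays of triple mutants nevertheless did not overlap those of *hpl-1*; *hpl-2* worms. The *hpl-2*; *his-24* worms lay 0.33 above *hpl-1 his-24* worms (95% interval -0.12 to 0.79, adjusted p = 0.162), and triple mutants 0.41 below *hpl-1*; *hpl-2* worms (log2 difference -0.41, -0.87 to 0.042, adjusted p = 0.162). The first distance depended on the *hpl-2*; *his-24* arrays, whose spread was the widest (SD 0.426). It was 0.63 without *hpl-2*; *his-24* replicate 1 and 0.032 without *hpl-2*; *his-24* replicate 2. For the second distance only the adjusted p depended on these arrays, through the common fit. Without both of them it stayed at -0.41, with an adjusted p of 0.0125.

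*fat-2*, whose product makes linoleic acid, was lowest in triple mutants. *fat-2* lay at log2 levels of 4.63 and 4.36 in triple mutants, 5.03 and 5.13 in *hpl-2*; *his-24* worms, 4.75 and 5.13 in *hpl-1*; *hpl-2* worms, and 5.28 and 5.33 in *hpl-1 his-24* worms. The triple mutant arrays were the lowest, and replicates of triple mutants and of *hpl-1*; *hpl-2* worms were each further apart than those of the other 2 genotypes. *fat-2* was 1.501-fold lower in triple mutants than in *hpl-2*; *his-24* worms (-0.59 ± 0.16, SE, n = 2 each, adjusted p = 0.0208) and 1.75-fold lower than in *hpl-1 his-24* worms (-0.81 ± 0.16, adjusted p = 0.00764). Both calls were lost without triple mutant replicate 2, at adjusted p of 0.110 and 0.0509, and the first also without *hpl-2*; *his-24* replicate 2 (adjusted p = 0.0552). The other 4 comparisons of *fat-2* did not pass, with differences between -0.45 and 0.14.

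*fat-3*, whose product turns linoleic acid into gamma-linolenic acid, was lower in triple mutants than in all 3 double mutants. Its log2 level was 2.22 and 2.26 in triple mutants, 2.82 and 3.07 in *hpl-2*; *his-24* worms, 3.103 and 3.183 in *hpl-1*; *hpl-2* worms, and 4.35 and 4.34 in *hpl-1 his-24* worms. No 2 genotypes overlapped. *fat-3* was 1.63-fold lower in triple mutants than in *hpl-2*; *his-24* worms (-0.71 ± 0.11, SE, n = 2 each, adjusted p = 0.00303), 1.87-fold lower than in *hpl-1*; *hpl-2* worms (-0.90 ± 0.11, adjusted p = 0.00238) and 4.30-fold lower than in *hpl-1 his-24* worms (-2.11 ± 0.11, adjusted p = 3.83e-05). Against *hpl-1 his-24* worms it was also 2.63-fold lower in *hpl-2*; *his-24* worms (-1.40, adjusted p = 9.88e-05) and 2.30-fold lower in *hpl-1*; *hpl-2* worms (-1.20, adjusted p = 0.000319). The distance between *hpl-2*; *his-24* worms and *hpl-1*; *hpl-2* worms was -0.19 (95% interval -0.46 to 0.068, adjusted p = 0.177), with -0.32 without *hpl-2*; *his-24* replicate 2 (adjusted p = 0.0361) and -0.069 without replicate 1 (adjusted p = 0.589).

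*fat-4*, whose product makes arachidonic and eicosapentaenoic acid, passed only in the 3 comparisons with *hpl-1 his-24* worms. The log2 level of *fat-4* was 3.998 and 3.998 in triple mutants, 4.03 and 4.03 in *hpl-2*; *his-24* worms, 4.02 and 4.09 in *hpl-1*; *hpl-2* worms, and 5.119 and 5.097 in *hpl-1 his-24* worms. The 6 arrays labelled with *hpl-2(tm1489)* lay close together and far below the other pair. *fat-4* was 2.16-fold lower in triple mutants than in *hpl-1 his-24* worms (-1.11 ± 0.083, SE, n = 2 each, adjusted p = 0.000153), 2.11-fold lower in *hpl-2*; *his-24* worms (-1.08, adjusted p = 9.22e-05) and 2.07-fold lower in *hpl-1*; *hpl-2* worms (-1.05, adjusted p = 0.000178). The 3 differences among the genotypes labelled with *hpl-2(tm1489)* lay between -0.059 and -0.028, and their 95% intervals between -0.26 and 0.17. *fat-3*, its neighbour on the chromosome, did pass between triple mutants and either of these double mutants.

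*fat-1*, the omega-3 desaturase, had a log2 level of 4.26 and 4.14 in triple mutants, 4.48 and 4.71 in *hpl-2*; *his-24* worms, 4.17 and 4.24 in *hpl-1*; *hpl-2* worms, and 5.09 and 5.13 in *hpl-1 his-24* worms. The *hpl-2*; *his-24* arrays lay between the *hpl-1 his-24* arrays and the other 4, which overlapped. *fat-1* was 1.88-fold lower in triple mutants than in *hpl-1 his-24* worms (-0.91 ± 0.11, SE, n = 2 each, adjusted p = 0.00107), 1.43-fold lower in *hpl-2*; *his-24* worms (-0.51, adjusted p = 0.00647) and 1.87-fold lower in *hpl-1*; *hpl-2* worms (-0.90, adjusted p = 0.0011). The difference of triple mutants from *hpl-1*; *hpl-2* worms was -0.0089 (95% interval -0.27 to 0.25). Triple mutants were 0.40 below *hpl-2*; *his-24* worms (log2 difference -0.40, adjusted p = 0.0229), and *hpl-2*; *his-24* worms 0.39 above *hpl-1*; *hpl-2* worms (adjusted p = 0.0247). Each of these 2 smaller calls was lost when either array of triple mutants (first call) or of the *hpl-1*; *hpl-2* pair (second call), or replicate 2 of *hpl-2*; *his-24* worms (both), was left out, with adjusted p of 0.0544 to 0.110.

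Counted over the 7 genes, all calls against *hpl-1 his-24* worms were downward. In triple mutants 6 of 7 were lower than in *hpl-1 his-24* worms, all but *fat-6*, where 19.1% of the 17092 genes tested were called lower. The median log2 difference of the 7 was -1.11, beside 0.068 for all genes tested. In *hpl-2*; *his-24* worms 4 of 7 were lower than in *hpl-1 his-24* worms (*fat-1*, *fat-3*, *fat-4* and *fat-7*), where 32.1% of genes were called lower, and the medians were -0.51 for the 7 and 0.030 for all genes. In *hpl-1*; *hpl-2* worms 5 of 7 were lower (these 4 and *fat-5*), where 18.7% of genes were called lower, with medians of -0.90 and 0.034. These 3 comparisons used the same *hpl-1 his-24* arrays. The arrays of the 2 genotypes did not overlap for 7, 6 and 7 of the 7 desaturases, where 79.0%, 84.9% and 76.3% of all genes did not.

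Among the genotypes labelled with *hpl-2(tm1489)*, fewer desaturases passed. In triple mutants 4 of 7 were lower than in *hpl-2*; *his-24* worms (*fat-1*, *fat-2*, *fat-3* and *fat-5*), where 23.3% of genes were called lower, and the medians were -0.40 for the 7 and -0.00081 for all genes. Of all calls in that comparison 54.3% were higher in triple mutants, but 42.4% under quantile normalization and 43.7% in the deposited log2 table, where the call of *fat-1* was lost in both (adjusted p = 0.079 and 0.347). The count was 2 without triple mutant replicate 2, where *fat-3* and *fat-5* still passed. In triple mutants 1 of 7, *fat-3*, was lower than in *hpl-1*; *hpl-2* worms, where 10.9% of genes were called lower, with medians of -0.23 and 0.017. The count became 2, with *fat-5*, without both *hpl-2*; *his-24* arrays. Calls over all 17092 genes, in either direction, rose there from 3866 to 6383. In *hpl-2*; *his-24* worms 2 of 7, *fat-1* and *fat-5*, were higher than in *hpl-1*; *hpl-2* worms, where 23.5% of genes were called higher, with medians of 0.027 and -0.040. Without either *hpl-1*; *hpl-2* array only *fat-5* passed there. Arrays did not overlap for 5, 6 and 3 of the 7 desaturases in these 3 comparisons, where 77.3%, 72.0% and 78.0% of all genes did not. The study's summary of calls names a log2 fold change beyond 1.5, while its methods name a cut-off of 1.5 in fold change. At a log2 fold change beyond 1.5, the calls left were *fat-3* and *fat-7* in triple mutants and *fat-7* in both double mutants, all lower than in *hpl-1 his-24* worms. None were left in the other 3 comparisons, where 10.9%, 3.94% and 8.02% of genes passed in either direction. Of all genes, 2.62%, 9.72% and 3.25% were called lower by that rule in triple mutants, *hpl-2*; *his-24* worms and *hpl-1*; *hpl-2* worms. *fat-5* and *fat-7* stand on the study's own list of genes reduced in both *hpl-1*; *hpl-2* worms and triple mutants relative to wild type. That list has another baseline and does not cover *hpl-2*; *his-24* worms. It was chosen on arrays of this experiment and is not independent evidence of a direction.

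**Figure D3:**
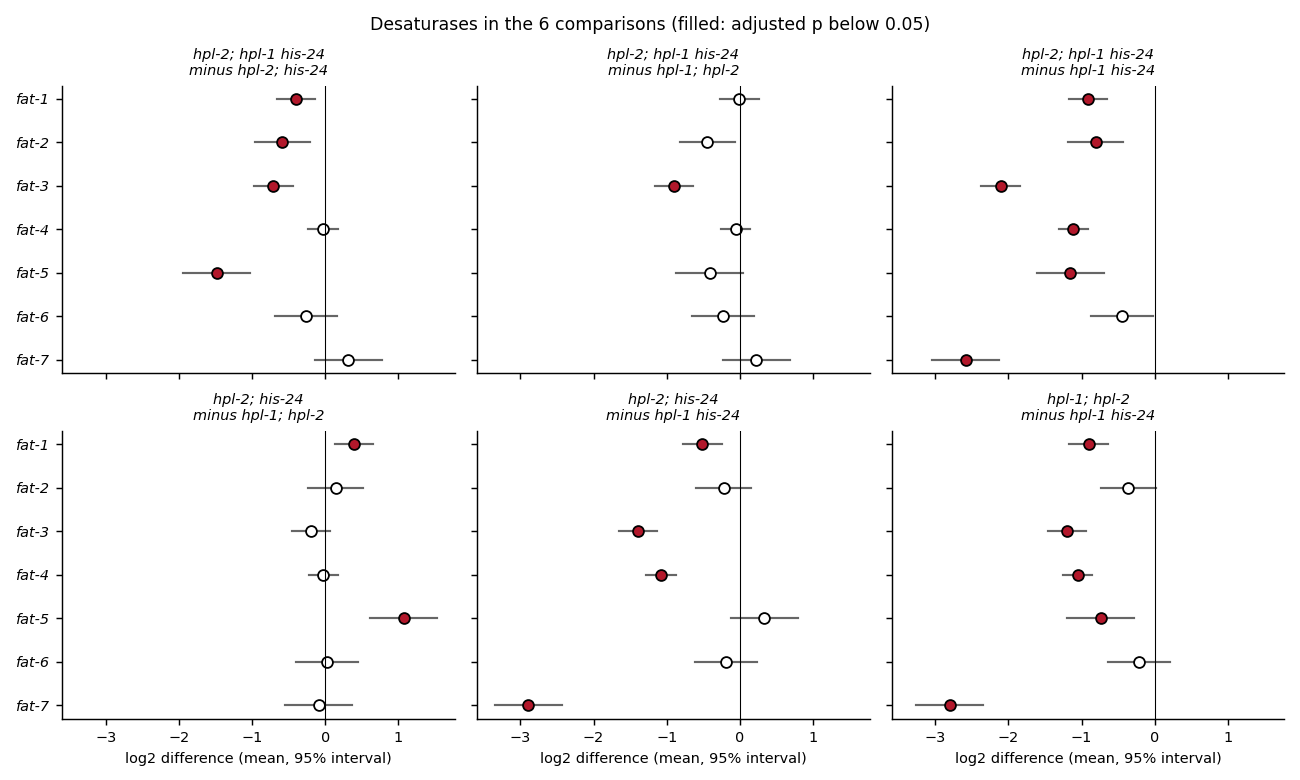
Log2 difference of each desaturase between the 2 genotypes named above each panel, first minus second (horizontal axis), with its 95% interval; filled points passed at an adjusted p below 0.05. *fat-7* lies near -2.6 to -2.9 in the 3 comparisons with *hpl-1 his-24* worms and its intervals cross 0 in the other 3, while the interval of *fat-3* lies below 0 in every panel that holds triple mutants.

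Triple mutants and *hpl-1*; *hpl-2* worms could also be compared within each of the 2 slides that held 1 array of both. For *fat-3* the difference of triple mutants from *hpl-1*; *hpl-2* worms was -0.96 on one slide and -0.85 on the other, and for *fat-5* it was -0.44 and -0.39. For *fat-2* it was -0.50 and -0.39. All 3 genes were lower in triple mutants on both slides, where the median over all genes tested was 0.0058 and 0.030. *fat-7* was higher in triple mutants on both, by 0.31 and 0.13. *fat-1* (0.012 and -0.030), *fat-4* (-0.096 and -0.022) and *fat-6* (-0.39 and -0.077) showed either differences of both signs or a difference near 0 on 1 slide. With slide as a block in a fit of these 4 arrays, 3 desaturases passed: *fat-3*, *fat-2* (adjusted p = 0.0154) and *fat-5* (adjusted p = 0.0174).

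To see which genes followed each desaturase, profiles over the 8 arrays were centred on their mean and compared by the root mean square of their log2 differences, among 14984 genes above background on every array. The profile nearest to *fat-5* was that of *vit-1*, a yolk protein gene, at 0.14, followed by *mfsc-1* (0.14) and Y38H6A.3 (0.17). *vit-1* had log2 levels of 4.47 and 4.59 in triple mutants, 5.88 and 6.004 in *hpl-2*; *his-24* worms, 4.96 and 5.05 in *hpl-1*; *hpl-2* worms, and 5.79 and 5.72 in *hpl-1 his-24* worms. As with *fat-5*, triple mutants and *hpl-1*; *hpl-2* worms were low and the other 2 genotypes high. Nearest to *fat-7* were K09C4.1 (0.22), *chil-28* (0.22) and F14F3.4 (0.25), and to *fat-3* F41E6.5 (0.11), *ugt-53* (0.12) and *aagr-1* (0.18). Nearest to *fat-4* were *sem-4* (0.056), *mec-17* (0.078) and Y43F8C.13 (0.087). *fat-1* lay nearest to *mec-3* (0.082), *frpr-18* (0.095) and *moc-6* (0.098), *fat-2* to F52C6.13 (0.047), *rplp-1* (0.063) and *cpr-6* (0.066), and *fat-6* to F52G2.3 (0.062), *spp-1* (0.072) and *hrg-11.2* (0.083). Within the family the nearest pair was *fat-2* and *fat-6* (0.19) and the farthest *fat-5* and *fat-7* (1.17). These distances are a description over 8 arrays that share genotypes and slides, and genes of small range lie near many others.

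The elongases, which act in turn with the desaturases, were lowest in *hpl-2*; *his-24* worms, all but *elo-9*. Of 9 listed, *elo-7* was not found under its own identifier and *elo-8* was not above background on any array, which left 7 tested. In *hpl-2*; *his-24* worms all 7 were lower than in *hpl-1*; *hpl-2* worms (median -1.42, where 28.0% of genes were called lower). There 6 of 7 were also lower than in *hpl-1 his-24* worms (median -1.96, where 32.1% of genes were called lower). In triple mutants 6 of 7 were higher than in *hpl-2*; *his-24* worms (median 0.81, where 27.6% of genes were called higher), while no desaturase passed upward in that comparison and 4 passed downward. Against *hpl-1 his-24* worms, 5 of 7 were lower in triple mutants (median -0.84), where 19.1% of genes were called lower. In *hpl-1*; *hpl-2* worms 4 were lower and 1, *elo-9*, was higher (median -0.42), where 18.7% and 20.2% of genes were called so. Between triple mutants and *hpl-1*; *hpl-2* worms 4 of 7 were lower in triple mutants (median -0.42), where 10.9% of genes were called lower.

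*elo-2*, which extends palmitic acid, showed this order clearly. Its log2 level was 3.12 and 3.08 in triple mutants, 1.94 and 2.02 in *hpl-2*; *his-24* worms, 3.54 and 3.499 in *hpl-1*; *hpl-2* worms, and 3.93 and 3.94 in *hpl-1 his-24* worms. No genotypes overlapped, and the log2 difference between *hpl-2*; *his-24* worms and *hpl-1 his-24* worms was -1.96 (adjusted p = 1.02e-05). *elo-1*, an elongase of the polyunsaturated chain, had log2 levels of 2.73 and 2.68 in triple mutants, 2.12 and 2.19 in *hpl-2*; *his-24* worms, 2.93 and 3.02 in *hpl-1*; *hpl-2* worms, and 3.70 and 3.87 in *hpl-1 his-24* worms. *elo-5* and *elo-6*, needed for branched-chain fatty acids, were likewise lowest in *hpl-2*; *his-24* worms, at -1.72 (adjusted p = 0.000101) and -2.41 (adjusted p = 7.08e-05) relative to *hpl-1 his-24* worms. In triple mutants their differences from *hpl-1 his-24* worms were -1.19 and -1.60. *elo-3* and *elo-4* were 2.15 and 2.47 log2 units below *hpl-1 his-24* worms in *hpl-2*; *his-24* worms (log2 differences -2.15 and -2.47, adjusted p = 0.000163 and 8.87e-05) and in triple mutants stood 1.79 and 1.68 above *hpl-2*; *his-24* worms. *elo-9* lay between -5.86 and -4.80 on all arrays and passed in *hpl-2*; *his-24* worms (-0.78) and triple mutants (-0.96), both lower than *hpl-1*; *hpl-2* worms, and in *hpl-1*; *hpl-2* worms it was 0.63 above *hpl-1 his-24* worms.

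The partners of both enzyme kinds were also lower than in *hpl-1 his-24* worms. *let-767* was not found under its own identifier, and the other 5 are the dehydratase *hpo-8*, the reductase *art-1*, the cytochrome b5 reductase *hpo-19* and the cytochrome b5 genes *cytb-5.1* and *cytb-5.2*. All 5 were lower than in *hpl-1 his-24* worms in triple mutants (median -0.81) and in *hpl-2*; *his-24* worms (median -0.93), and 2 of 5 in *hpl-1*; *hpl-2* worms (median -0.32), where 19.1%, 32.1% and 18.7% of all genes were called lower. *hpo-8* had a log2 level of 1.24 and 0.82 in triple mutants, 0.74 and 0.99 in *hpl-2*; *his-24* worms, 1.52 and 1.83 in *hpl-1*; *hpl-2* worms, and 2.46 and 2.53 in *hpl-1 his-24* worms. Its difference between *hpl-2*; *his-24* worms and *hpl-1 his-24* worms was -1.63 (adjusted p = 0.00044). None of the 5 passed between triple mutants and *hpl-2*; *his-24* worms, where 27.6% of genes were called higher and 23.3% lower. Relative to *hpl-1*; *hpl-2* worms, 3 of 5 were lower in triple mutants (10.9% of genes) and 4 of 5 in *hpl-2*; *his-24* worms (28.0%).

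Of 13 genes listed as regulators of desaturase expression, *sbp-1*, *nhr-80*, *nhr-49* and *mdt-15* were to be named whatever their values. *sbp-1*, the worm homologue of the sterol regulatory element binding proteins, had log2 levels of 1.49 and 1.52 in triple mutants, 1.57 and 1.68 in *hpl-2*; *his-24* worms, 1.99 and 1.93 in *hpl-1*; *hpl-2* worms, and 2.18 and 2.20 in *hpl-1 his-24* worms. Relative to *hpl-1 his-24* worms, *sbp-1* was lower in triple mutants (-0.69, adjusted p = 0.0015) and *hpl-2*; *his-24* worms (-0.57, adjusted p = 0.0018), with -0.23 in *hpl-1*; *hpl-2* worms (adjusted p = 0.082). *nhr-80*, a nuclear receptor, had log2 levels of 0.32 and 0.21 in triple mutants, 0.092 and 0.37 in *hpl-2*; *his-24* worms, 0.53 and 0.72 in *hpl-1*; *hpl-2* worms, and 1.25 and 1.07 in *hpl-1 his-24* worms. Relative to the same worms, *nhr-80* was lower in triple mutants (-0.90), in *hpl-2*; *his-24* worms (-0.93) and in *hpl-1*; *hpl-2* worms (-0.54), with adjusted p of 0.003, 0.0015 and 0.023. As for *fat-4*, the *hpl-1 his-24* arrays were the highest. *nhr-49* ran the other way where it passed, at 0.27 in *hpl-2*; *his-24* worms relative to *hpl-1 his-24* worms (adjusted p = 0.044), and *mdt-15* passed in no comparison, with differences between -0.25 and 0.14. Over all 13, 5 were lower and none higher in triple mutants than in *hpl-1 his-24* worms, 8 were lower and 2 higher in *hpl-2*; *his-24* worms, and 2 were lower and 1 higher in *hpl-1*; *hpl-2* worms. Of all genes 19.1%, 32.1% and 18.7% were called lower there, and the share of the list in *hpl-1*; *hpl-2* worms was near that of all genes. In triple mutants 5 were higher and 1 lower than in *hpl-2*; *his-24* worms (27.6% and 23.3% of all genes), and 1 lower than in *hpl-1*; *hpl-2* worms (10.9%). In *hpl-2*; *his-24* worms 1 was higher and 5 were lower than in *hpl-1*; *hpl-2* worms (23.5% and 28.0%).

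Among the genes of membrane and storage lipid assembly, *sams-1* and *dgat-2* passed beyond a log2 fold change of 1.5. *sams-1*, a synthetase of S-adenosylmethionine, the methyl donor for phosphatidylcholine, had log2 levels of -5.72 and -5.51 in triple mutants, -7.59 and -7.23 in *hpl-2*; *his-24* worms, -3.99 and -4.17 in *hpl-1*; *hpl-2* worms, and -3.84 and -3.77 in *hpl-1 his-24* worms. Its log2 difference from *hpl-1 his-24* worms was -3.60 in *hpl-2*; *his-24* worms (adjusted p = 9.25e-06) and -1.81 in triple mutants (adjusted p = 0.000244). On the *hpl-2*; *his-24* arrays *sams-1* was called well above background, but it lay close to background. A listed regulator, *hlh-30*, was called so at -7.39 and -7.26 on these arrays, but not at -7.21 on triple mutant replicate 1. The size of the *sams-1* difference in *hpl-2*; *his-24* worms is therefore uncertain. *dgat-2*, an acyltransferase of triglyceride synthesis, ran the opposite way in *hpl-2*; *his-24* worms. It had log2 levels of 1.28 and 1.18 in triple mutants, 2.57 and 2.87 in *hpl-2*; *his-24* worms, 1.07 and 1.07 in *hpl-1*; *hpl-2* worms, and 1.13 and 1.09 in *hpl-1 his-24* worms. Of the 10 genes of this list, 8 were lower and none higher in triple mutants than in *hpl-1 his-24* worms, 6 lower and 2 higher in *hpl-2*; *his-24* worms, and 4 lower and none higher in *hpl-1*; *hpl-2* worms. Of all genes 19.1%, 32.1% and 18.7% were called lower, and 22.9%, 33.5% and 20.2% higher, in these comparisons. Of 5 genes of fatty acid synthesis, at most 2 passed in any comparison. In triple mutants 2 were lower than in *hpl-2*; *his-24* worms (23.3% of genes), and in the latter 2 were higher than in *hpl-1*; *hpl-2* worms (23.5%). *fasn-1*, the fatty acid synthase, had log2 levels of -1.62 and -1.24 in triple mutants and -0.63 and -0.41 in *hpl-2*; *his-24* worms. It had -1.26 and -1.67 in *hpl-1*; *hpl-2* worms and -1.06 and -1.22 in *hpl-1 his-24* worms. The *hpl-2*; *his-24* arrays were thus the highest, with triple mutants lower than these (-0.91, adjusted p = 0.009). Of 5 users of polyunsaturated fatty acids, the cytochrome P450 gene *cyp-29A3* passed upward relative to *hpl-1 his-24* worms in triple mutants, *hpl-2*; *his-24* worms and *hpl-1*; *hpl-2* worms, at 0.76, 1.02 and 0.80. Over these 5 users, 1 was higher and 1 lower in triple mutants, 2 higher and 2 lower in *hpl-2*; *his-24* worms, and 1 higher and 3 lower in *hpl-1*; *hpl-2* worms, with medians of -0.22, 0.056 and -0.40. Over the 45 tested genes of all 6 lists together, triple mutants had 1 higher and 25 lower than *hpl-1 his-24* worms, *hpl-2*; *his-24* worms had 7 higher and 27 lower, and *hpl-1*; *hpl-2* worms had 3 higher and 16 lower. These counts stand beside the shares of all genes given for the assembly genes. Relative to *hpl-2*; *his-24* worms, 13 of the 45 were higher and 8 lower in triple mutants, where 27.6% and 23.3% of genes were called so. Relative to *hpl-1*; *hpl-2* worms, 2 were higher and 11 lower in triple mutants (11.7% and 10.9% of genes), and 8 higher and 20 lower in *hpl-2*; *his-24* worms (23.5% and 28.0%).

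**Figure D4:**
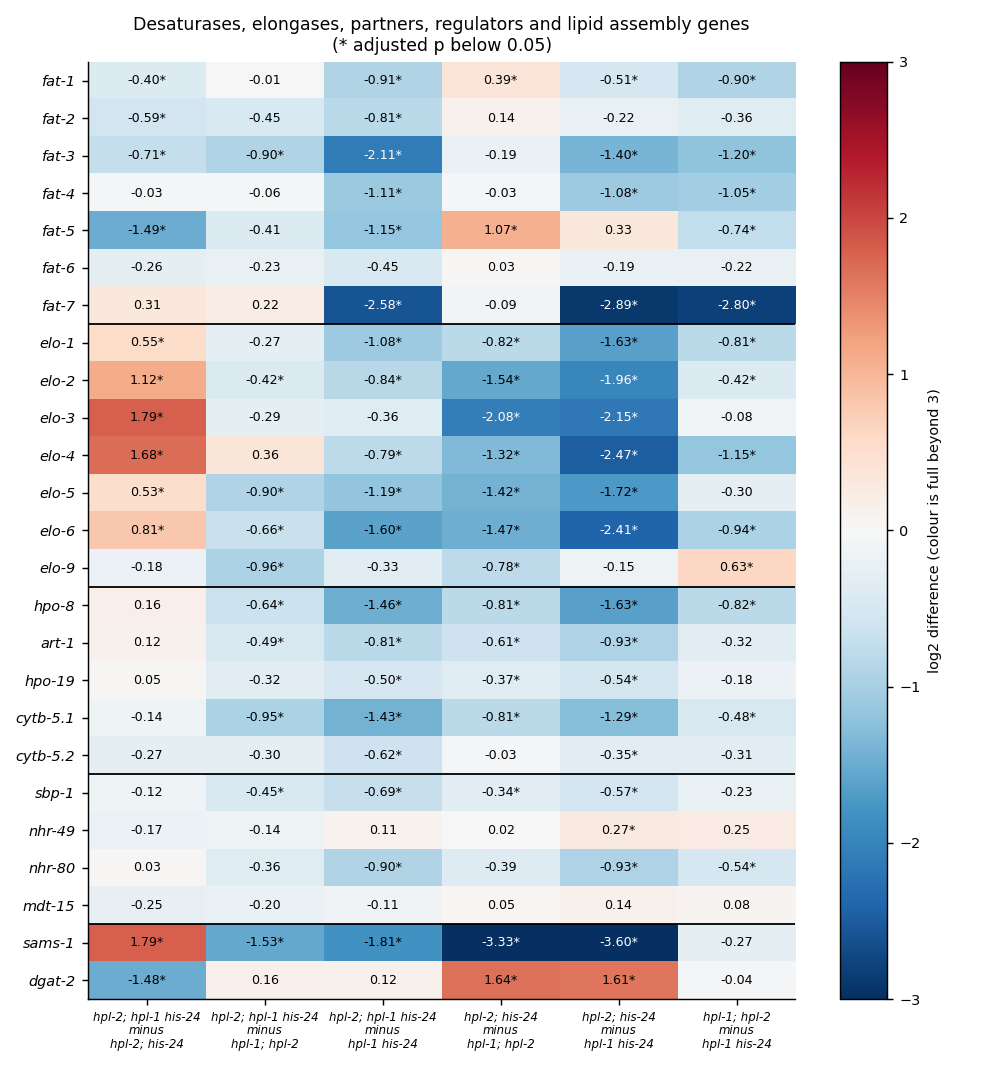
Log2 difference, first genotype minus second (columns), of the desaturases, elongases, their partners, 4 regulators and 2 lipid assembly genes (rows), with a star where the adjusted p was below 0.05. In the column that sets *hpl-2*; *his-24* worms beside *hpl-1 his-24* worms, *elo-1* to *elo-6* carry a star and lie between -2.47 and -1.63, and *fat-7* lies at -2.89.

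Markers of the tissues that the animals hold moved with several of these results. In whole animals fewer cells of a type and less RNA per cell cannot be told apart. The 7 intestinal markers, all above background on every array, summed to 81.7 to 83.7 times the array's 75th percentile in triple mutants, 78.7 to 86.0 in *hpl-2*; *his-24* worms, 85.6 to 112 in *hpl-1*; *hpl-2* worms and 122 to 132 in *hpl-1 his-24* worms. Against *hpl-1 his-24* worms, 5 of 7 were lower in each of the other 3 genotypes. Of all genes, 19.1%, 32.1% and 18.7% were called lower in triple mutants, *hpl-2*; *his-24* worms and *hpl-1*; *hpl-2* worms. In *hpl-1*; *hpl-2* worms 1 of the 7 was higher, where 20.2% of genes were called higher. Among the lower markers was the gut esterase *ges-1*, at -1.02 in triple mutants, -1.28 in *hpl-2*; *his-24* worms and -1.08 in *hpl-1*; *hpl-2* worms. *elt-2*, the gut master regulator, had differences of -0.043, -0.043 and 0.26 there. The lower intestinal sum thus ran beside the lower levels of *fat-1*, *fat-3*, *fat-4* and *fat-7*, and its part in them was not tested. Epidermal markers summed to 84.5 to 90.8 in triple mutants, 34.1 to 70.8 in *hpl-2*; *his-24* worms, 67.9 to 87.9 in *hpl-1*; *hpl-2* worms and 107 to 113 in *hpl-1 his-24* worms, all 7 above background throughout. Against *hpl-1 his-24* worms, 1 was higher and 1 lower in triple mutants and in *hpl-1*; *hpl-2* worms. In *hpl-2*; *his-24* worms 1 was higher and 4 were lower. The shares of genes called lower are those given for the intestinal markers. For genes called higher they were 22.9%, 33.5% and 20.2%, in the same order.

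Yolk and sperm genes, which mark late larval and adult stages, ran beside *fat-5* and the elongases. The 6 yolk genes, made in the adult intestine, summed to 177 to 226 in triple mutants, 365 to 394 in *hpl-2*; *his-24* worms, 237 to 303 in *hpl-1*; *hpl-2* worms and 329 to 385 in *hpl-1 his-24* worms. *vit-1* is among them, and the order of these ranges is that of the *fat-5* means, but those of *hpl-2*; *his-24* and *hpl-1 his-24* worms overlap. Between these genotypes none of the 6 passed, where 33.5% of genes were called higher and 32.1% lower. In *hpl-1*; *hpl-2* worms 2 were lower than in *hpl-1 his-24* worms (18.7% of genes). In triple mutants 1 was lower than in *hpl-1*; *hpl-2* worms (10.9%) and 5 than in *hpl-2*; *his-24* worms (23.3%). The 4 sperm genes found summed to 4.88 to 5.39 in triple mutants, 0.998 to 1.97 in *hpl-2*; *his-24* worms, 4.94 to 5.18 in *hpl-1*; *hpl-2* worms and 4.40 to 4.92 in *hpl-1 his-24* worms. The *hpl-2*; *his-24* arrays therefore stood apart in sperm markers, as they did in the elongases, *sams-1* and *dgat-2*. The part of these genes, or of the stage they mark, in those results was not tested. The 7 germ line markers summed to 55.1 to 56.5 in triple mutants, 58.1 to 60 in *hpl-2*; *his-24* worms, 60.9 to 70.4 in *hpl-1*; *hpl-2* worms and 40.9 to 43.7 in *hpl-1 his-24* worms, which were lowest. Over all arrays the other sums ran from 12.9 to 18.0 for 3 genes of body wall muscle, 0.797 to 1.08 for 4 of the pharynx, 11.3 to 16.4 for 6 of neurons and 67.7 to 91.0 for 6 of oocytes and embryos. Of the 4 pharynx genes, 3 were lower in triple mutants than in *hpl-1*; *hpl-2* worms (median -1.06), where 10.9% of genes were called lower. In *hpl-1*; *hpl-2* worms 3 were higher than in *hpl-1 his-24* worms (median 0.96), where 20.2% of genes were called higher. The part of the pharynx genes in the desaturase results was not tested.

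**Figure D5:**
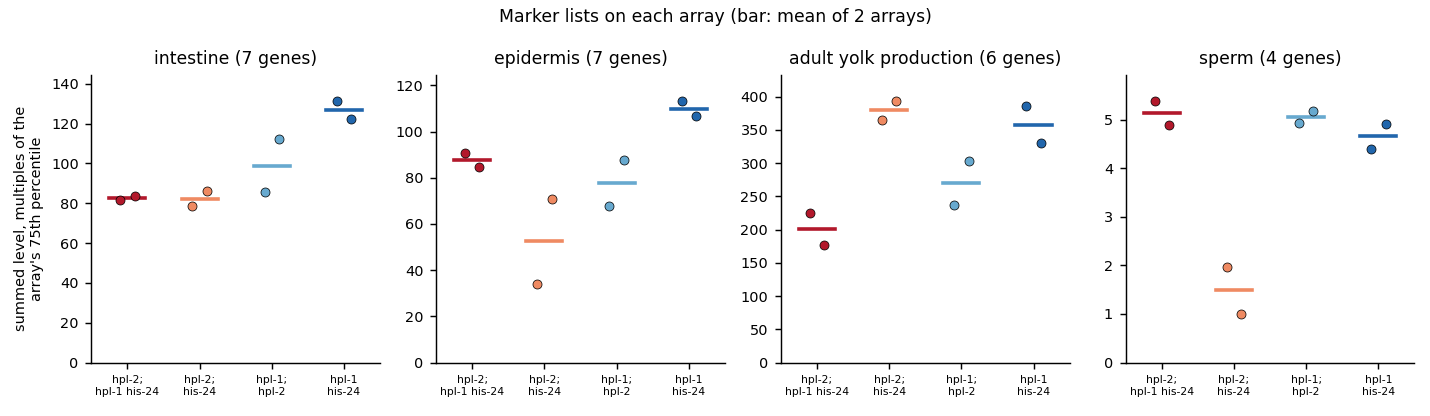
Summed level of 4 marker lists in multiples of the array's 75th percentile (vertical axes, from 0), on the 2 arrays of each genotype (horizontal axes), as points with a bar at their mean. Intestinal markers are highest in *hpl-1 his-24* worms, yolk genes lowest in triple mutants and sperm genes lowest in *hpl-2*; *his-24* worms.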

How the data were processed

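Total RNA of whole worms (600 ng per sample) was amplified and Cy3-labelled for one-colour Agilent arrays. The scanner intensities were deposited by the authors as Agilent Feature Extraction (version 9.5.3.1) gave them, background-subtracted and not normalized between arrays. The deposited table of log2 values follows the authors' median spot signal and was used as an alternative; its columns have nearly the same median (9.687 to 9.688), as after quantile normalization, but the method itself is not given in the sources used here. The submitters' processing notes also name limma. The genome build of the probes is not given, so no positions are printed.

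Non-control spots (42964) were expressed as log2 processed signal minus the array's 75th percentile, which was 4613 to 8501 intensity units. A reading of "well above background" is the scanner software's call for at least 50% of a probe's spots. Outlier spots (92 to 238 per array) were dropped, spots of a probe averaged, and the brightest probe taken per identifier. On an array, 77.3% to 84.7% of probes exceeded background clearly. Identifiers that exceeded it on both arrays of 1 or more genotypes were tested with limma 3.58.1 (R 4.3.3, lmFit and eBayes, two-sided, 1 mean per genotype over all 8 arrays, 4 residual and 2.43 prior degrees of freedom) and Benjamini-Hochberg adjustment over all 17092. A gene passed at an adjusted p below 0.05. An exact permutation test of 2 against 2 arrays cannot go below p = 0.333. The fit was tested on simulated data. The number of arrays limits the precision.

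The genes and lists were chosen with earlier results of these data known. All 7 desaturases and the elongases were named. Of the other lists, *sbp-1*, *nhr-49*, *nhr-80* and *mdt-15* were named, with any gene beyond a log2 fold change of 1.5 at an adjusted p below 0.05, and for each desaturase the 3 genes nearest in profile. *vit-1*, *fasn-1*, *cyp-29A3*, *ges-1* and *elt-2* were described after their values were seen. Symbols came from the RefSeq gene table (18124 of 19441 genes matched). Alternatives were quantile normalization, normexp background correction (offset 50), 2 filters on dim probes, the deposited log2 table, the mean of probes, the larger fold, other sets of arrays, slide and replicate blocks, and leaving out each array. Python 3.11.15 with matplotlib 3.10.9 and pandas 2.3.3 drew the plots.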

Additional observations from a re-analysis of the deposited data

How the results depend on the processing

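The calls of *fat-1*, *fat-3*, *fat-4* and *fat-7* against *hpl-1 his-24* worms, of *fat-3* and *fat-5* between triple mutants and *hpl-2*; *his-24* worms, of *fat-3* between triple mutants and *hpl-1*; *hpl-2* worms, and of *fat-5* between *hpl-2*; *his-24* worms and *hpl-1*; *hpl-2* worms kept their direction and an adjusted p below 0.05 in every alternative run, though some shrank by over 1.5 times. Against *hpl-1 his-24* worms, *fat-1* shrank to -0.40 (deposited log2 table) in triple mutants, and to -0.27 in *hpl-2*; *his-24* worms and -0.60 in *hpl-1*; *hpl-2* worms (quantile normalization), and *fat-4* to -0.67 in triple mutants (deposited log2 table). With a log2 fold change beyond 1.5 the count of desaturases was 0, 0 and 2 in triple mutants against *hpl-2*; *his-24* worms, *hpl-1*; *hpl-2* worms and *hpl-1 his-24* worms. It was 0 and 1 in *hpl-2*; *his-24* worms against *hpl-1*; *hpl-2* worms and *hpl-1 his-24* worms, and 1 in *hpl-1*; *hpl-2* worms against *hpl-1 his-24* worms. The genes of the 6 pathway lists gave 3, 1, 2, 4, 9 and 0 in the same order, in place of 21, 13, 26, 28, 34 and 19. The deposited log2 table gave 2 desaturases in place of 4 between triple mutants and *hpl-2*; *his-24* worms, without *fat-1* and *fat-2*. Fits of the 4 arrays compared gave 2 between triple mutants and *hpl-1*; *hpl-2* worms and 1 between *hpl-2*; *his-24* worms and *hpl-1*; *hpl-2* worms. They called 5721 and 6020 of the 17092 genes, against 3866 and 8804 in the main fit. A slide block on 4 arrays gave 3 between triple mutants and *hpl-1*; *hpl-2* worms, and called 7436 of the 17092 genes. Leaving out each array in turn gave 2 to 5, 1 to 2 and 5 to 7 for triple mutants against *hpl-2*; *his-24* worms, *hpl-1*; *hpl-2* worms and *hpl-1 his-24* worms, 1 to 3 and 4 to 5 for *hpl-2*; *his-24* worms against *hpl-1*; *hpl-2* worms and *hpl-1 his-24* worms, and 4 to 5 for *hpl-1*; *hpl-2* worms against *hpl-1 his-24* worms. Leaving out both *hpl-2*; *his-24* arrays, an alternative added after the data were seen, gave 2 between triple mutants and *hpl-1*; *hpl-2* worms.

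No difference called in the report turned, and no turned value passed. Of those that turned, *fat-6* between triple mutants and *hpl-1 his-24* worms passed in 5 of 20 alternatives, and without *hpl-2*; *his-24* replicate 2 *fat-6* passed between *hpl-2*; *his-24* worms and *hpl-1 his-24* worms (-0.44) and *fat-7* between *hpl-2*; *his-24* worms and *hpl-1*; *hpl-2* worms (-0.39). Under quantile normalization these were, for triple mutants minus *hpl-2*; *his-24* worms, *fat-4* (0.10) and *fat-7* (-0.025), for triple mutants minus *hpl-1*; *hpl-2* worms, *fat-1* (0.094) and *fat-4* (0.052), for *hpl-2*; *his-24* worms minus *hpl-1*; *hpl-2* worms, *fat-6* (-0.003915) and *fat-7* (0.13), and *fat-6* for the difference from *hpl-1 his-24* worms in triple mutants (0.026), *hpl-2*; *his-24* worms (0.14) and *hpl-1*; *hpl-2* worms (0.14). In the deposited log2 table they were *fat-4* (0.11) and *fat-7* (-0.031), *fat-1* (0.22) and *fat-4* (0.081), *fat-2* (-0.025) and *fat-7* (0.10), and *fat-6* (0.14, 0.20 and 0.16), in the same order of comparisons. Under normexp *fat-1* was 0.044 for triple mutants minus *hpl-1*; *hpl-2* worms. Leaving out 1 array also turned *fat-1* for triple mutants minus *hpl-1*; *hpl-2* worms (-0.067 to 0.049) and *fat-6* for *hpl-2*; *his-24* worms minus *hpl-1 his-24* worms (-0.44 to 0.056). For *hpl-2*; *his-24* worms minus *hpl-1*; *hpl-2* worms it turned *fat-2* (-0.050 to 0.33), *fat-4* (-0.065 to 0.0088), *fat-6* (-0.22 to 0.27) and *fat-7* (-0.39 to 0.21). The cause was not tested.

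Quantile normalization moved the median of all genes for triple mutants minus *hpl-2*; *his-24* worms to -0.10, against -0.00081 under percentile scaling. Replicate numbers did not pair the arrays. The correlation of same-numbered deviations ran from -0.30 to 0.18 over the 6 comparisons, and a replicate block changed none of the 42 calls (6 of 7 between triple mutants and *hpl-1 his-24* worms). A block of crossed replicate numbers on the 4 arrays compared, added after the data were seen, gave 3 calls between triple mutants and *hpl-1*; *hpl-2* worms, where it is the same fit as the slide block, and 7 between triple mutants and *hpl-1 his-24* worms, where the 4 arrays without a block also gave 7. Slide as a random block changed no call (correlation -0.23). The block cannot separate slide from genotype for *hpl-2*; *his-24* or *hpl-1 his-24* worms, which had slides to themselves. Of the elongases, quantile normalization gave 2 calls in place of 4 between triple mutants and *hpl-1*; *hpl-2* worms. Between *hpl-1*; *hpl-2* worms and *hpl-1 his-24* worms it gave 3 in place of 5. The precision is that of 2 arrays a genotype, and where 1 array is left it is assumed to vary like the other genotypes.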
